A study of Mus musculus with 16 samples.

Results

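Arhgap5, Clasp1, Clip4, Tns2 and Mcf2l are 5 cytoskeletal regulators, set apart from the 30153 genes of a heart transcriptome table because earlier results on the same libraries had placed them among the genes that stood high in Hap-I hearts. They were chosen by their fold changes among these groups in those earlier results, against C57 or between the aged and adult western-diet groups, and found here by gene symbol. All 5 passed the filter of at least 1 TPM (a transcript abundance corrected for transcript length and scaled to a common total) in at least 3 libraries, which left 11415 genes. The name "raised in Hap-I hearts" held for Arhgap5, Clasp1 and Clip4 and not for Tns2 and Mcf2l, whose means over the 3 Hap-I groups lay slightly below C57. The 16 hearts fall into 5 from Hap-I aged western-diet animals, 4 from Hap-I aged animals with no diet named, 4 from Hap-I adult western-diet animals by their sample labels, and 3 from C57 adults.

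All mice have the C57/BL6 strain label. The Hap-I line is transgenic for the human type 1 receptor of angiotensin II, in its haplotype I form, so the C57 group differs from the others in genotype, and from the aged groups also in age. The design text names the adult Hap-I group without a diet, so its diet rests on the sample labels. No adult Hap-I group without the diet and no aged C57 group were analysed here, so genotype, age and diet cannot be told apart in several of the comparisons. The promoter of the transgene, the age in months and the sex are not given in the sources used here. Transcripts of Y-linked genes were close to 0 in 5 hearts, namely replicates 1 to 3 of the aged western-diet group and replicates 1 and 2 of the adult western-diet group, and present in the others.

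Small GTPases are molecular switches of the cytoskeleton, turned on by guanine nucleotide exchange factors and off by GTPase-activating proteins. Mcf2l (also called Dbs) is an exchange factor of the Dbl family, and Arhgap5 (p190-B) is a GTPase-activating protein. Clasp1 binds growing microtubule ends and stabilizes them, and Clip4 belongs to the cytoplasmic linker proteins, which bind microtubules through CAP-Gly domains. Tns2, tensin 2, is an adaptor of focal adhesions, where integrins join the actin cytoskeleton to the matrix. In heart muscle, microtubules and adhesion sites carry load and anchor the contractile apparatus.

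The genes lie on 5 chromosomes, all on the plus strand, in GRCm38 with GENCODE M21 annotation. Arhgap5 (ENSMUSG00000035133) spans chromosome 12 from 52503972 to 52571975, and Clasp1 (ENSMUSG00000064302) chromosome 1 from 118389058 to 118612678. Clip4 (ENSMUSG00000024059) spans chromosome 17 from 71768473 to 71864273, Tns2 (ENSMUSG00000037003) chromosome 15 from 102100413 to 102116401, and Mcf2l (ENSMUSG00000031442) chromosome 8 from 12873806 to 13020905. All are protein-coding. Few of their 31-base words, the units by which kallisto assigns reads, occur in transcripts of other genes: 0.919% for Arhgap5, 1.31% for Clasp1, 0.241% for Clip4, 0.0183% for Tns2 and 3.12% for Mcf2l. On the other strand 1 annotated gene overlaps Arhgap5, 4 overlap Clasp1 and 4 overlap Mcf2l, none of them protein-coding, and a microRNA gene lies within Mcf2l on its own strand. Whether strand was used when reads were assigned is not given in the sources used here.

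RefSeq (GRCm38.p6) promoter windows matched 4 of the 5 genes, Arhgap5, Clip4, Tns2 and Mcf2l. The 250 bases before the annotated start are shown for 3 genes. Tns2 and Mcf2l were taken because these moved together between the Hap-I groups, and Clip4 because it varied with Arhgap5 and Clasp1. Each is the first RefSeq window of its gene, out of 1 for Tns2, 6 for Mcf2l and 3 for Clip4. Which start the hearts used was not examined. The windows shown lie outside the gene's own annotated exons, and read 5′ to 3′ on the plus strand. The Tns2 and Clip4 windows lie inside the GENCODE span of their gene, since RefSeq places the start further downstream. Capitals mark matches, on either strand, to the GC box (GGGCGG) and to the TEAD site (GGAATG).
Tns2, chr15:102102684-102102933: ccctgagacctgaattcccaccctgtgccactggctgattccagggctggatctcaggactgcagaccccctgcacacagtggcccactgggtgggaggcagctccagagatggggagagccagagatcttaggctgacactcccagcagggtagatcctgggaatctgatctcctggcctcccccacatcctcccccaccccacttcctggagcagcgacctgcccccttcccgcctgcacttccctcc
Mcf2l, chr8:12873556-12873805: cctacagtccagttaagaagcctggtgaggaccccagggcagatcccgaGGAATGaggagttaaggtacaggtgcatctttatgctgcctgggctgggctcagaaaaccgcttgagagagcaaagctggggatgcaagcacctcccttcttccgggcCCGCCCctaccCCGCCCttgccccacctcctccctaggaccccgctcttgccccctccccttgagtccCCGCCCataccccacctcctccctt
Clip4, chr17:71769441-71769690: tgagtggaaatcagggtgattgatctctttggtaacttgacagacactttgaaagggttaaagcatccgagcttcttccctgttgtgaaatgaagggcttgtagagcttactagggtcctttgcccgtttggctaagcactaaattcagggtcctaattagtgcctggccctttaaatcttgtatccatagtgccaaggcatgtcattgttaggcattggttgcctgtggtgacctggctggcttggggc

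The Mcf2l window shown held 3 GC boxes, all on the minus strand, and 1 TEAD site on the plus strand, while the Tns2 and Clip4 windows held neither. This depends on the window: for Mcf2l, windows 2 and 4 held a GC box each and window 6 a TEAD site. The remaining windows of Mcf2l and Clip4 held neither. Of 32851 upstream windows of this length, 32.7% hold a GC box and 12.6% a TEAD site. The E-box of the clock factors (CACGTG), the CArG box of serum response factor and the MEF2 site were searched on both strands as well. They were found in none of the 3 windows shown and occur in 6.02%, 1.47% and 2.92% of all windows. The sequences of Tns2 and Mcf2l are rich in G and C (63.6% and 62.4%) and that of Clip4 is less so (47.2%), against a median of 52.4%. Matches describe these letters only.

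Arhgap5 differed most from C57. It stood at 6.69, 6.2, 6.38, 6.48 and 3.96 scaled TPM (TPM divided by a size factor for each library) in aged western-diet hearts, at 4.59, 3.29, 7.23 and 6.17 in aged hearts and at 2.34, 4.63, 3.5 and 4.69 in adult western-diet hearts, against 0.373, 1.48 and 0.467 in C57 hearts. Every Hap-I heart lay above every C57 heart. The 3 Hap-I group means averaged 5.02 scaled TPM and the C57 mean was 0.775 ± 0.616 (SD, n = 3), a ratio of 6.48; the log2 fold change, on the log2(scaled TPM + 1) scale, was 1.77 ± 0.21 (SE). Since 2 of the 3 C57 hearts were under 0.5 scaled TPM, the log2 value understates the ratio and depends on the pseudocount.

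Clasp1 was also above C57 in every Hap-I heart, at a higher level. Its values were 48.2, 27.6, 35.8, 28.9 and 19.2 scaled TPM in aged western-diet hearts, 30.1, 23.7, 43.4 and 35.4 in aged hearts and 12.5, 17.8, 20.2 and 34.9 in adult western-diet hearts, against 7.2, 12 and 7.17 in C57 hearts. The groups did not overlap, but the lowest Hap-I heart (12.5) was close to the highest C57 heart (12). The mean of the Hap-I groups was 3.28 times that of C57 (28.8 against 8.79 scaled TPM).

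Clip4 stood at 19.7, 19.1, 19.4, 18.9 and 8.95 scaled TPM in aged western-diet hearts, at 11.9, 9.75, 21.6 and 18.1 in aged hearts and at 3.31, 9.76, 10.9 and 11.8 in adult western-diet hearts, against 3.85, 5.46 and 3.21 in C57 hearts. Adult western-diet replicate 1 alone lay within the C57 range; the other 12 Hap-I hearts lay above it. The Hap-I mean was 3.31 times the C57 mean (13.8 against 4.18 scaled TPM), with log2 fold changes against C57 of 1.79 ± 0.35 in aged western-diet hearts, 1.62 ± 0.36 in aged hearts and 0.85 ± 0.36 in adult western-diet hearts (SE).

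Tns2 did not stand above C57. Its values were 8.97, 5.65, 9.05, 4.85 and 10.5 scaled TPM in aged western-diet hearts, 5.46, 3.97, 6.78 and 7.13 in aged hearts and 2.79, 1.82, 3.77 and 2.65 in adult western-diet hearts, against 5.37, 3.75 and 7.85 in C57 hearts. The aged hearts, with or without the diet, overlapped the C57 range. The adult western-diet hearts were low, with a mean of 2.76 ± 0.80 scaled TPM against 5.66 ± 2.06 in C57 (SD, n = 4 and 3), and only replicate 3 of that group reached the lowest C57 value.

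Mcf2l stood at 20.3, 9.3, 14.4, 10.6 and 16.0 scaled TPM in aged western-diet hearts, at 9.1, 6.53, 8.56 and 8.19 in aged hearts and at 5.83, 4.3, 5.95 and 8.69 in adult western-diet hearts, against 9.27, 11.1 and 12 in C57 hearts. Both the aged hearts without the diet and the adult western-diet hearts lay wholly below C57, at 0.751 and 0.575 times its mean, and the aged western-diet hearts overlapped it. Over the 3 Hap-I groups the log2 fold change was -0.27 ± 0.19 for Mcf2l and -0.12 ± 0.22 for Tns2 (SE).

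**Figure D1:**
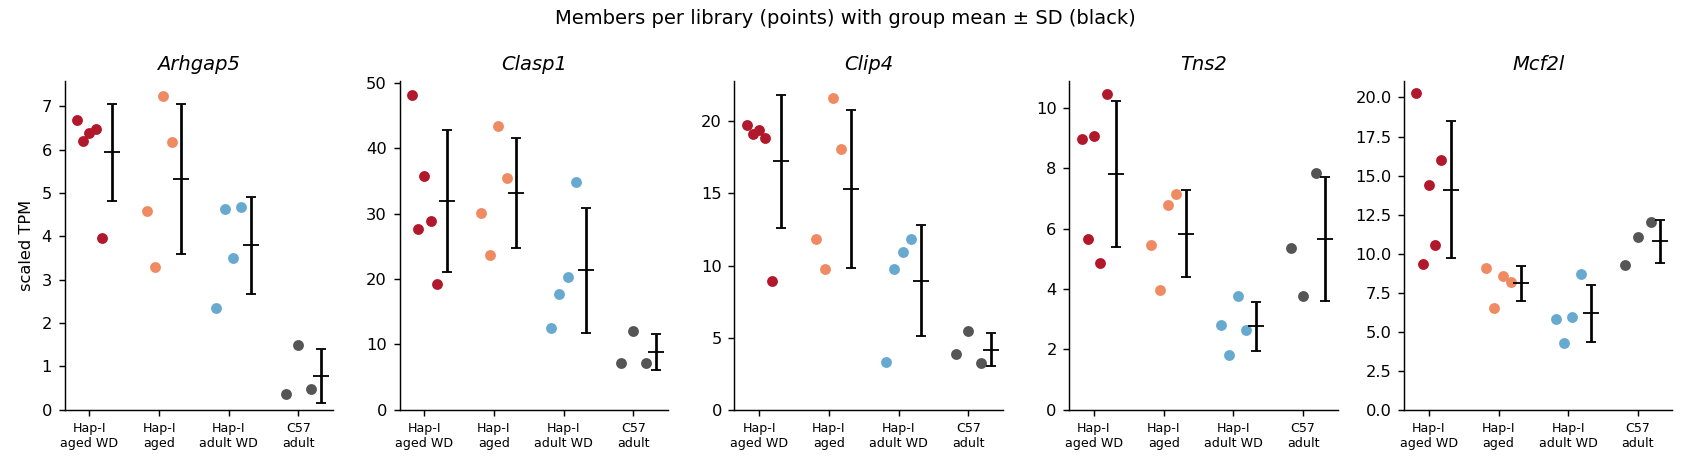
Scaled TPM of each gene (vertical axis, a separate scale in each panel) in every library, grouped as Hap-I aged western diet (WD), Hap-I aged, Hap-I adult western diet and C57 adult; points are hearts and black marks the group mean ± SD. Arhgap5 and Clasp1 are above C57 in every Hap-I heart, whereas Tns2 and Mcf2l are lowest in adult western-diet hearts.

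Because the contrasts against C57 are those by which the genes came to be singled out, the values above are a description and no test is attached to them. Against C57, 2 of the 5 genes, Arhgap5 and Clasp1, were higher in all 13 Hap-I hearts, beside 4.63% of all genes tested. Arhgap5 was at 0.394, 1.41 and 0.479 TPM before scaling in C57 hearts, so it met the filter only with Hap-I hearts. That tilts its lack of overlap with C57 toward a rise, here and in the counts by group, and nothing is read from it. In the aged western-diet group 3 genes were wholly above C57 (background 12.2%), in the aged group 3 were above (18%) and Mcf2l was below (16.1%), and in the adult western-diet group Arhgap5 and Clasp1 were above (9.83%) and Mcf2l below (8.2%). All these comparisons share the same 3 C57 hearts. In bulk tissue, fewer cells of a type and less RNA per cell cannot be told apart.

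Markers of other cells moved with the same contrast. The summed level of 16 fibroblast markers was 391 to 867 scaled TPM in aged western-diet hearts, 712 to 958 in aged hearts and 438 to 857 in adult western-diet hearts, against 994 to 1290 in C57 hearts. That of 16 endothelial markers was 631 to 962, 724 to 829 and 794.5 to 1102 in these Hap-I groups, against 985 to 1250 in C57. Atrial markers (10 genes) ran from 217 to 352, from 257 to 5675 and from 163 to 1432, against 398 to 7383 in C57, and none of their 10 log2 fold changes over the Hap-I groups was positive (median -2.15). No marker of these lists was at 0 in every library. The 19 ventricular cardiomyocyte markers, at 53580 to 70070 in the Hap-I hearts and 66630 to 73920 in C57, mark all 16 samples as heart muscle. The part of these differences in the levels of the 5 genes was not tested.

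Relatives of the 5 genes were taken by gene family and were tested in the same limma fit, in which 15.7% of all genes passed in either direction, and 9.42% were higher, at an adjusted p under 0.05. Arhgap35, the other p190 GTPase-activating protein, rose in Hap-I hearts with a log2 fold change of 0.53 ± 0.10 (adjusted p = 0.00435). Its means were 8.59, 8.44 and 6.22 scaled TPM in the aged western-diet, aged and adult western-diet hearts, against 4.99 in C57. Tns1, the most abundant tensin, rose by 0.54 ± 0.09 (adjusted p = 0.00235). Trio, an exchange factor related to Mcf2l, was low, at 0.607 to 2.5 scaled TPM in Hap-I hearts and 0.226 to 0.442 in C57 hearts. No C57 heart reached 1 TPM of Trio, so it passed the filter through Hap-I hearts alone. This tilts its test and its lack of overlap with C57 toward a rise. Its log2 fold change of 0.84 ± 0.13 is therefore a description with no test attached. Between adult western-diet Hap-I hearts and C57 hearts alone, Arhgap35 and Tns1 did not pass. Their log2 fold changes were 0.26 and 0.22 (adjusted p = 0.245 and 0.289), and that of Trio was 0.47. In aged western-diet hearts against C57 the log2 fold changes of Arhgap35, Tns1 and Trio were 0.68, 0.71 and 1.03. In aged hearts against C57 they were 0.65, 0.68 and 1.01. Arhgap35 and Tns1 had adjusted p of at most 0.00606 in both comparisons. Clasp2 did not pass (0.08, 95% interval -0.22 to 0.38; adjusted p = 0.735), nor did Clip1, Clip2 and Clip3 (0.20, 0.13 and -0.04; adjusted p = 0.366, 0.531 and 0.88). Tns3 (0.24, adjusted p = 0.181), Kalrn (-0.07, adjusted p = 0.726) and Arhgef25 (-0.38, adjusted p = 0.0641) did not pass either. By group, Arhgef25 was called lower in aged western-diet hearts against C57 (-0.545, adjusted p = 0.0203). It did not pass in aged (-0.107, adjusted p = 0.696) or adult western-diet hearts (-0.493, adjusted p = 0.0919). Tns4, at 0.364 scaled TPM or less, and Mcf2, the founding Dbl gene, at 0.019 or less, were too low to be tested. Whether a gene and its relative differed in their change was not tested.

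Wider lists of microtubule and adhesion genes were counted in the same fit against C57 without the 5 genes, beside 9.42% of all genes higher and 6.31% lower. Of 37 microtubule plus-end and stabilizing proteins 9 rose and 1 fell, and of 13 tubulins 0 rose and 2 fell. These counts were not corrected for transcript length, and a difference between the lists was not tested. By group against C57, the plus-end list, with Clasp1 and Clip4 included, had median log2 fold changes of 0.18, 0.23 and 0.06. These are for aged western-diet, aged and adult western-diet hearts, beside -0.001, -0.007 and 0.008 over all genes. Of 46 focal adhesion and costamere proteins 5 rose and 6 fell. The median log2 fold changes of the lists with the 5 genes included were 0.12 for the plus-end list, -0.05 for tubulins and -0.11 for the adhesion list, against 0.001 over all genes.

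**Figure D2:**
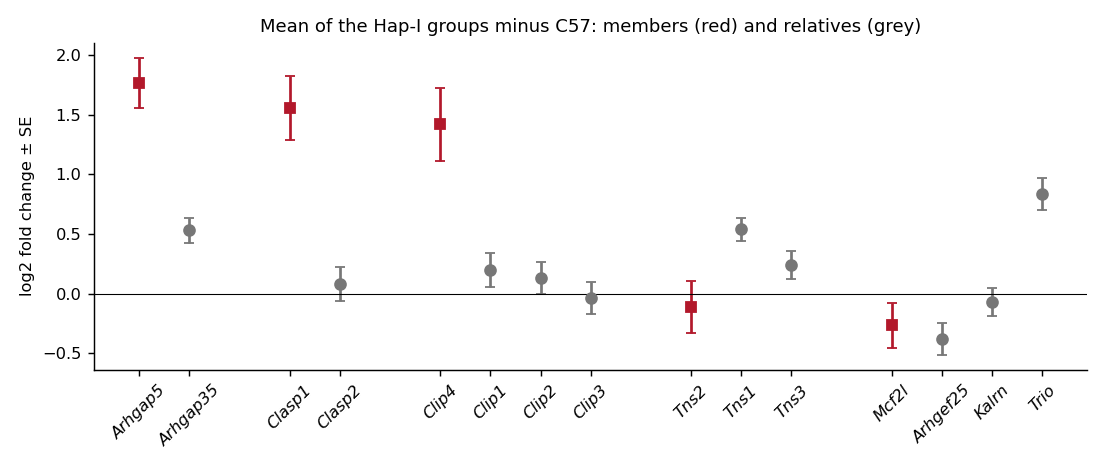
Log2 fold change ± SE (vertical axis) of the Hap-I average (3 groups) minus C57 for the 5 genes (red squares) and their relatives that passed the filter (grey circles), on the log2(scaled TPM + 1) scale. Arhgap5, Clasp1 and Clip4 lie between 1.42 and 1.77, their relatives Arhgap35, Clasp2 and Clip1 to Clip3 between -0.04 and 0.53, and Tns2 and Mcf2l below 0.

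Diet in aged Hap-I mice was examined by setting the 5 aged western-diet hearts against the 4 aged hearts. Y-linked transcripts were close to 0 in replicates 1 to 3 with the diet and present in every heart without it. Diet and presumed sex are therefore not balanced here. Mcf2l was higher with the diet in every heart than in any heart without it, at a mean of 14.1 ± 4.39 against 8.1 ± 1.11 scaled TPM (SD), a ratio of 1.74. The margin was narrow (lowest 9.3 with the diet, highest 9.1 without), and 3.24% of all genes were wholly higher in this comparison. Its log2 fold change of 0.69 ± 0.20 had an unadjusted p = 0.00313 and did not pass over all genes (limma adjusted p = 0.121). Tns2 averaged 7.8 ± 2.41 against 5.83 ± 1.44 scaled TPM with overlapping groups (0.34 ± 0.23, adjusted p = 0.5). Arhgap5, Clasp1 and Clip4 had log2 fold changes of 0.16, -0.08 and 0.17 (adjusted p = 0.781, 0.923 and 0.844), with 95% intervals of -0.31 to 0.64, -0.68 to 0.51 and -0.51 to 0.85. In limma 0 of the 5 genes passed, and 0.166% of all genes passed. At an unadjusted p under 0.05 stood 1 of the 5, Mcf2l, and 15.9% of all genes. Among libraries with Y-linked transcripts, the log2 fold changes of Arhgap5, Clasp1, Clip4, Tns2 and Mcf2l were -0.01, -0.44, -0.15, 0.29 and 0.63. With sex as a covariate over all hearts they were 0.13, -0.06, 0.23, 0.41 and 0.78. Markers of other cells differed as well: 0 of 10 atrial markers had a positive log2 fold change (median -1.59) and 3 of 14 smooth muscle and pericyte markers did (median -0.47). Their part in these values was not tested.

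Age in Hap-I mice on the western diet was examined by setting the 5 aged western-diet hearts against the 4 adult western-diet hearts. Tns2 and Mcf2l were higher in the aged hearts without overlap, where 3.31% of all genes were wholly higher. Tns2 averaged 7.8 ± 2.41 scaled TPM in aged against 2.76 ± 0.80 in adult hearts (SD), a ratio of 2.83, and Mcf2l 14.1 ± 4.39 against 6.19 ± 1.83, a ratio of 2.28. The log2 fold changes were 1.20 ± 0.23 and 1.05 ± 0.20 (SE). Earlier results on the same libraries had named this pair in this very comparison, so its values are a description with no test attached. Both genes fall among the 2.39% of all genes called in limma (1.67% called higher), and nothing is read from that count. Of 10 atrial markers, 1 had a positive log2 fold change in this comparison (median -0.97), and 7 of 14 smooth muscle and pericyte markers did (median -0.02); their part in the values was not tested.

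Clip4, Arhgap5 and Clasp1 did not pass in that comparison. Clip4 averaged 17.2 ± 4.64 scaled TPM in aged against 8.96 ± 3.86 in adult western-diet hearts, with a log2 fold change of 0.94 ± 0.32 (limma adjusted p = 0.113). Arhgap5 averaged 5.94 ± 1.12 against 3.79 ± 1.11 (0.55 ± 0.22, adjusted p = 0.185), and Clasp1 31.9 ± 10.8 against 21.4 ± 9.57 (0.59 ± 0.28, adjusted p = 0.257). Among the libraries with Y-linked transcripts, which leave 2 hearts in each of these groups, the log2 fold changes were 0.18 for Clip4, 0.27 for Arhgap5 and -0.17 for Clasp1. With sex as a covariate over all hearts they were 0.95, 0.55 and 0.59. Without adult western-diet replicate 1, neither Tns2 nor Mcf2l was called, at log2 fold changes of 1.22 and 1.04, and without replicate 3 of that group Mcf2l was not called, at 1.05. No test is attached to this pair, and these values only describe how its calls depend on single hearts.

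Aged hearts without the diet and adult western-diet hearts differ in both age and labelled diet, which cannot be told apart. Y-linked transcripts were present in every one of these aged hearts and close to 0 in replicates 1 and 2 of the adult group. Tns2 was wholly higher in the aged hearts, at 5.83 ± 1.44 against 2.76 ± 0.80 scaled TPM (SD, n = 4 each), beside 8.39% of all genes wholly higher. Its log2 fold change of 0.86 ± 0.24 missed the threshold (limma adjusted p = 0.0734). Earlier results had named Tns2 and Mcf2l in a comparison that used these same adult hearts. Their p and the lack of overlap of Tns2 are therefore no independent test, and nothing is read from them. Clasp1 and Clip4 had log2 fold changes of 0.67 ± 0.30 and 0.77 ± 0.34 (adjusted p = 0.205 and 0.202), Arhgap5 0.39 ± 0.24 (adjusted p = 0.35) and Mcf2l 0.36 ± 0.21 (adjusted p = 0.322). In limma 0 of the 5 genes passed, and 2.14% of all genes did. At an unadjusted p under 0.05 stood 3 of the 5, Tns2 among them, and 21.5% of all genes. Among libraries with Y-linked transcripts, the log2 fold changes of Arhgap5, Clasp1, Clip4, Tns2 and Mcf2l were 0.28, 0.27, 0.34, 0.69 and 0.14. With sex as a covariate over all hearts they were 0.42, 0.65, 0.72, 0.81 and 0.29. In this comparison 13 of 14 smooth muscle and pericyte markers (median 0.37), 11 of 16 endothelial markers (median 0.27) and 9 of 10 atrial markers (median 0.51) had positive log2 fold changes, and their part in these values was not tested.

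**Figure D3:**
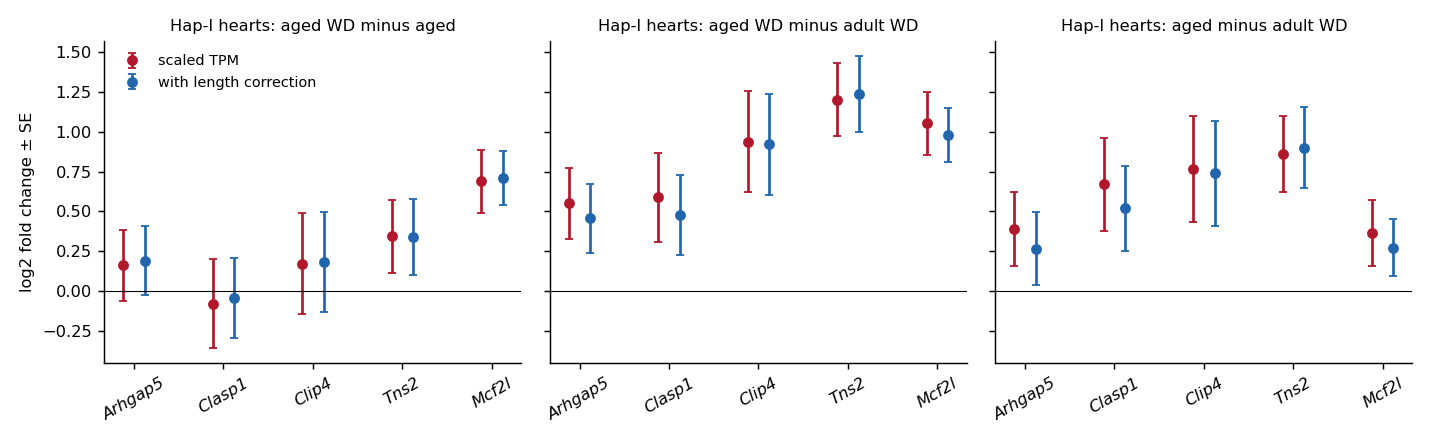
Log2 fold change ± SE (vertical axis, on the log2(scaled TPM + 1) scale; WD is western diet) of each gene in the 3 comparisons among Hap-I groups, from scaled TPM (red) and after a correction for transcript length (blue). Tns2 and Mcf2l are at 1.20 and 1.05 in aged against adult western-diet hearts, and the correction moves them to 1.24 and 0.98.

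The other microtubule and adhesion genes were counted from lists chosen with earlier results known. Of 37 tested microtubule plus-end and stabilizing proteins other than Clasp1 and Clip4, Apc alone passed in limma in aged against adult western-diet hearts, at 3.98 ± 0.69 scaled TPM in the aged against 2.23 ± 0.15 in the adult hearts (0.62, adjusted p = 0.0194). Of 13 tubulins 0 passed. Of 46 focal adhesion and costamere proteins other than Tns2, Tns1 alone passed, at 90.9 ± 9.04 against 64.2 ± 7.86 scaled TPM (0.50, adjusted p = 0.0213). Of all genes 2.39% were called, so 1 call in a list of 37 or 46 is near that share. At an unadjusted p under 0.05 stood 13 of 37 plus-end genes, 3 of 13 tubulins and 15 of 46 adhesion genes, beside 19.7% of all genes. With Clasp1, Clip4 and Tns2 included in their lists, the median log2 fold changes were 0.18 for the plus-end list, -0.06 for tubulins and 0.14 for the adhesion list. Over all genes the median was -0.01.

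The same lists were counted in aged hearts without the diet against adult western-diet hearts. In limma 2 of 37 plus-end genes, 0 of 13 tubulins and 2 of 46 adhesion genes passed, beside 2.14% of all genes. At an unadjusted p under 0.05 stood 14, 0 and 18 of them, beside 21.5% of all genes. Apc rose (log2 fold change 0.55, limma adjusted p = 0.036). So did Dst, a cytoskeletal linker (37.9 ± 1.92 against 22.6 ± 4.53 scaled TPM; 0.74, adjusted p = 0.0406), Tns1 (0.46, adjusted p = 0.0343) and Tln1, the integrin activator talin 1 (0.67, adjusted p = 0.0397). Between the aged groups with and without the diet, 0 genes of these 3 lists passed in limma, with 4 of 37 plus-end genes, 5 of 13 tubulins and 13 of 46 adhesion genes at an unadjusted p under 0.05, beside 15.9% of all genes.

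The 5 genes were compared in pairs by how they varied among hearts of 1 group. After subtraction of the group means, Arhgap5, Clasp1 and Clip4 varied together over the 16 hearts, with Pearson r of 0.823 for Arhgap5 and Clasp1, 0.878 for Arhgap5 and Clip4 and 0.83 for Clasp1 and Clip4 (Spearman coefficients 0.835, 0.865 and 0.862). Tns2 and Mcf2l had r = 0.626 (Spearman 0.521). Between Tns2 or Mcf2l and Arhgap5, Clasp1 or Clip4, r ran from -0.195 to 0.514. The highest of these, for Clasp1 and Mcf2l, was not far below that of Tns2 and Mcf2l. How often other pairs of genes reach such r was not examined. These correlations are given without p, since the values of a library share its depth, RNA quality and scaling.

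**Figure D4:**
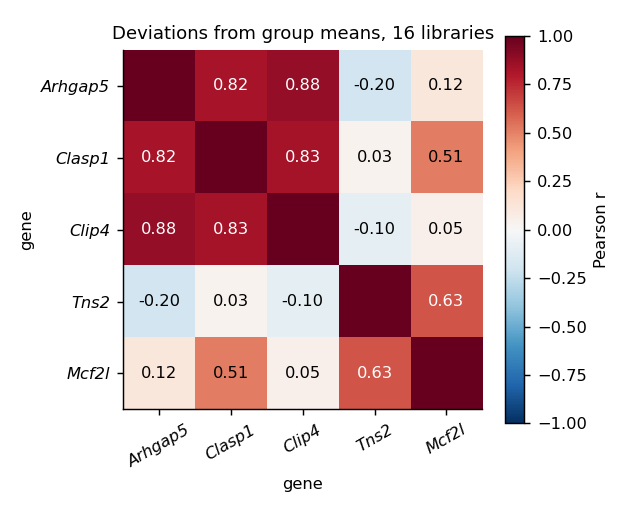
Pearson r between the 5 genes over 16 libraries, of log2(scaled TPM + 1) after each group mean was subtracted. Arhgap5, Clasp1 and Clip4 have r of 0.823 to 0.878 with each other, and Tns2 is at -0.195 to 0.033 with these 3.

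Among 6037 genes with a mean of at least 5 scaled TPM, those most like Arhgap5 by this measure over 16 hearts were Nt5c1a and Tmtc1 (r = 0.922 each), Mapk8 (0.921) and Pm20d2 (0.912). Those most like Clasp1 were Ppp1r12b (0.974), which encodes a myosin phosphatase regulatory subunit, Kpna3 (0.959), Cdnf (0.957) and Tns1 (0.957). For Clip4 they were Kif13a (0.926), a kinesin motor, Tex2 (0.923), Man2a2 (0.921) and Pm20d2 (0.902). For Tns2 they were Unc93b1 (0.886), Elmo2 (0.85), Exoc7 (0.848) and Fgfr1 (0.84), and for Mcf2l Dst (0.946), Igf2r (0.945), Cand2 (0.941) and Dnajc1 (0.941).

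A technical measure moved with some of the 5 genes. In each library the rank correlation between a gene's transcript length and its level relative to the other libraries was taken as the length relation. It averaged 0.0736 ± 0.212 in aged western-diet, 0.166 ± 0.124 in aged and -0.11 ± 0.2 in adult western-diet hearts, against -0.146 ± 0.0572 in C57 hearts (SD, n = 5, 4, 4 and 3). Clasp1, Arhgap5 and Mcf2l have median transcript lengths above those of 95.6%, 92.4% and 87.8% of tested genes, Clip4 of 70.9% and Tns2 of 33.3%. The median is over all annotated transcripts of a gene, for Tns2 9 transcripts of 359 to 4761 bases with a median of 870. Which of them the hearts expressed was not examined, so the length used may not be that of the expressed form. Within groups, the length relation had r = 0.861 with Mcf2l, 0.662 with Clasp1, 0.516 with Tns2, 0.335 with Arhgap5 and 0.266 with Clip4 over the 16 hearts (Spearman 0.788, 0.559, 0.485, 0.391 and 0.429). With the levels corrected for length, Tns2 and Mcf2l had log2 fold changes of 1.24 and 0.98 in aged against adult western-diet hearts.

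**Figure D5:**
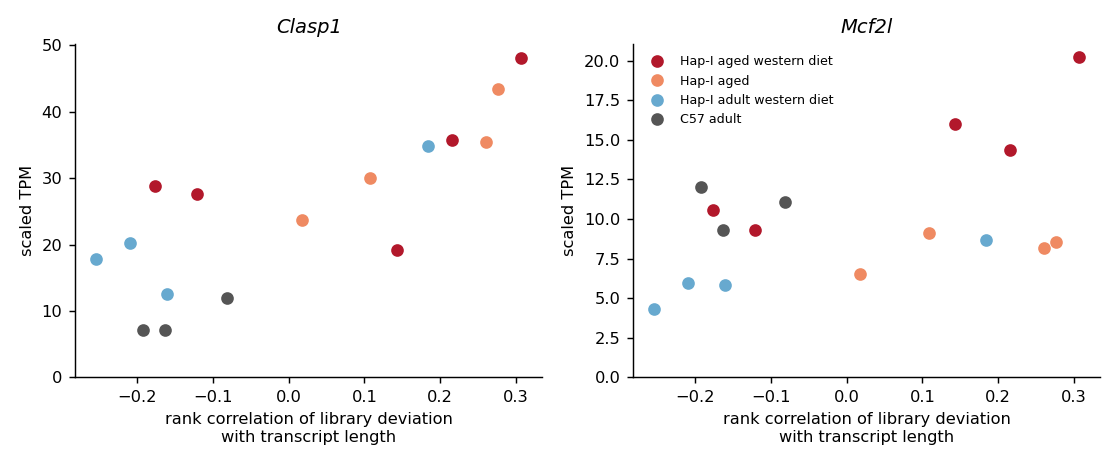
Scaled TPM of Clasp1 and Mcf2l (vertical axes) against each library's length relation (horizontal axis, rank correlation of transcript length with relative level), coloured by group. Aged western-diet replicate 1, with the highest length relation (0.307), also has the highest Clasp1 (48.2) and Mcf2l (20.3).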

How the data were processed

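Heart RNA was sequenced from 16 mice after poly(A) selection and stranded library preparation, per the labels' protocols. The deposited values are TPM per gene; the submitters' processing notes name kallisto, DESeq2 and GRCm38, with no versions or roles. Columns summed to 942090 to 959772 TPM over 30153 genes, and 9553 to 11175 genes reached 1 TPM per library. TPM keep no depth, so depth is unknown and no counting error is given.

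Each library's TPM were scaled by a median-of-ratios factor (0.678 to 1.231). The filter asked for 1 TPM or more in 3 or more libraries and left 11415 genes. limma 3.58.1 (R 4.3.3) fitted log2(scaled TPM + 1) with 4 group means and a variance trend. P-values were Benjamini-Hochberg adjusted over all genes and called under 0.05. The fit was tested on simulated data with independent noise for each gene. The simulation held no effect shared within a library, such as sex or the length relation, so it does not cover such effects. Replicates are separate samples by their labels, which name no litter or batch.

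The genes and lists were chosen with earlier results of these data known. Named were the 5 genes, their relatives, for each gene the 4 most similar genes, and up to 4 called genes of smallest p per microtubule or adhesion list and comparison among Hap-I groups. Some planned gene lists are not reported here. Scaling, filter, pseudocount, library weights, sex, transcript length and each library were varied.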

Additional observations from a re-analysis of the deposited data

Results flagged for a closer look

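In aged western-diet hearts, replicate 5 lay far from the other 4 for a pair of genes. Arhgap5 was at 3.96 scaled TPM there, with the nearest heart at 6.2, and Clip4 was at 8.95, with the nearest heart at 18.9. The gap was 0.82 and 0.92 of the whole range of the group. Of 15 groups of 4 or 5 hearts examined in this way, chance marks about 1 in 20. Without this heart the log2 fold change in aged against adult western-diet hearts was 0.67 for Arhgap5 and 1.15 for Clip4 (limma adjusted p = 0.109 and 0.0507). The cause was not tested.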

How the results depend on the processing

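No paired analysis was possible because the labels carry no replicate number and the numbers used here only name hearts. Directions and calls below are for limma over all genes. Earlier results had named Tns2 and Mcf2l in aged against adult western-diet hearts, so calls of this pair are no independent test in any comparison here. They are listed only to show how they depend on the processing. Between the aged groups with and without the diet, 0 of the 5 genes passed, and 1 (Mcf2l, adjusted p = 0.0318) with library weights; leaving out each heart gave 0 to 0. In aged against adult western-diet hearts the 2 calls became 0 without scaling, 0 in hearts with Y-linked transcripts and 0 with only the groups compared, and 0 to 2 when each heart was left out. The log2 fold changes of Tns2 and Mcf2l were 1.30 and 1.17, 0.97 and 0.77, and 1.20 and 1.05 in the first 3 of these settings, against 1.20 and 1.05. In aged hearts without the diet against adult western-diet hearts, the 0 calls became 3 with library weights and 1 (Tns2, adjusted p = 0.0445) with only the groups compared, and stayed at 0 to 0 when each heart was left out.

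Over all genes, 19 passed for diet in aged mice. The count was 63 with quantile normalization, 6 with a filter at 5 TPM, 316 with library weights, 44 with a sex covariate, 135 in hearts with Y-linked transcripts, 57 with the length correction, and 4 to 92 without each heart. After the data were seen, length with sex gave 50 and length without aged western-diet replicate 5 gave 111. For age on the diet 273 passed. The count was 22 without scaling, 166 without a filter, 172 with a filter at 5 TPM, 1505 with library weights, 10 in hearts with Y-linked transcripts, 5 with only the groups compared, and 29 to 570 without each heart. For aged hearts without the diet against adult western-diet hearts 244 passed. The count was 162 without scaling, 159 without a filter, 137 with a filter at 5 TPM, 3044 with library weights, 78 with a sex covariate, 10 in hearts with Y-linked transcripts, 422 with only the groups compared, 63 with length and sex, and 38 to 734 without each heart. The cause was not tested.

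Against C57, the log2 fold change of the Hap-I groups ran from 1.61 to 2.70 for Arhgap5, from 1.44 to 1.78 for Clasp1 and from 1.28 to 1.59 for Clip4 over all settings. Tns2 ran from -0.34 to 0.11 and Mcf2l from -0.36 to -0.19. Without scaling the median of all genes moved to -0.16 for diet in aged mice, 0.11 for age on the diet and 0.27 for aged against adult western-diet hearts, and single changes there are relative to it. Depth is unknown and limits the low values of Arhgap5 in C57 in a way that cannot be given.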
